A study of Danio rerio with 8 samples.

Results

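Genes for neuropeptide precursors were examined in hindbrain neurons sorted from *phox2a* null larvae and their siblings. The 9 genes were *penka*, *penkb*, *agrp*, *npy*, *sst1.1*, *tac1*, *adcyap1b*, *vip* and *pdyn*, of 28802 genes counted, and were taken from the count table by symbol. *penkb* and *agrp* were picked because their reads fell in 1 genotype only, so their difference between genotypes is described here and was not tested. The other 7 were chosen as known precursors, with earlier results of these data known, and of these *npy* had no reads in any library.

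Each library held green neurons sorted at 72 to 74 hours post-fertilization (hpf). All larvae carried the driver Tg(-6.7Tru.Hcrtr2:GAL4-VP16), its reporter Tg(UAS:E1b-Kaede), and Tg(isl1:GFP). Siblings were phox2a+/+ or +/- and were pooled without telling these genotypes apart, whereas null larvae were phox2a-/-. The experiment was repeated 4 times, here lettered A to D by ascending run code, and each repeat gave 1 library of each genotype, named sibling A to sibling D and null A to null D (8 libraries in all). Larvae lacked pigment through a *mitfa* mutation, null larvae carried CRISPR loss-of-function alleles of *phox2a*, several of which were used, and each library pooled the neurons of many larvae. The gate passed any green neuron and did not separate Kaede from GFP, so labeled neurons other than vestibular projection neurons, such as *isl1*-positive cells, could be included. In these bulk libraries, fewer cells of a type and less RNA per cell cannot be told apart.

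Neuropeptides are made as long precursors that enter the secretory pathway, are cut by prohormone convertases, trimmed by a carboxypeptidase and often amidated, and are then stored in dense-core granules. They act mostly on G protein-coupled receptors and modulate fast transmission by glutamate, GABA or glycine. A given peptide is usually made by a small subset of the neurons of a region, and hindbrain neurons are known sources of enkephalins, substance P and somatostatin.

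Repeats A to C were compared, 3 libraries against 3, and repeat D, whose null library had by far the fewest reads, was set aside as the repeat that the study excluded. Gene reads ranged from 18657956 to 19968857 in siblings and from 9579375 to 16992689 in null larvae. A count of 0 allows up to 3 reads, or 0.150 to 0.313 CPM (reads scaled to the library's gene reads) in these 6 libraries, counting error alone considered. Null C stood apart, with reads on 11087 genes against 16675 to 18409 in the other 5 libraries, and with 62.4% of listed reads not aligned against 11.8% to 16.1%. Null D held only 735217 gene reads. The targeted gene *phox2a* had 9355, 9465 and 4151 reads in siblings and 1125, 2811 and 1015 reads in null larvae, which does not separate the transcript of a mutant allele from that of an intact one. The sorted libraries had reads on all 6 neuronal markers examined, which summed to 9217 to 12445 CPM in siblings and 8595 to 10769 CPM in null larvae.

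**Figure D1:**
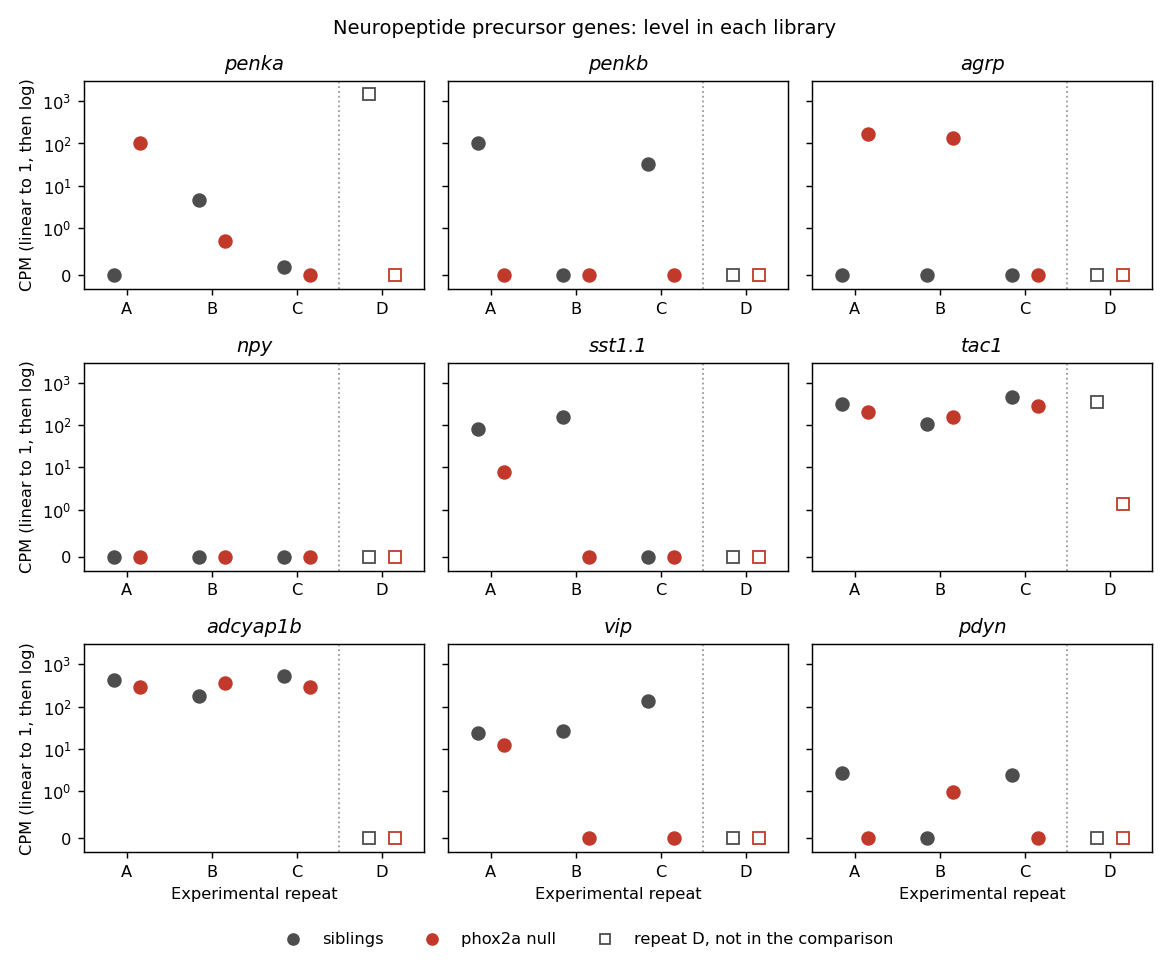
Level of each of the 9 precursor genes (CPM, linear up to 1 and logarithmic above) in siblings (grey) and *phox2a* null larvae (red) by experimental repeat; open squares are repeat D, which was not compared. *tac1* and *adcyap1b* had reads in all 6 libraries of repeats A to C, while the other detected members lacked reads in at least 1 of them.

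The members fell into those with reads in every library of repeats A to C and those present in some libraries and without reads in others. *tac1* and *adcyap1b* belonged to the first kind. The other 6 detected members lacked reads in at least 1 of the 6 libraries, but for *penkb* and *agrp* the rule of choice set this. Of the 6 detected members other than these, 4 (*penka*, *sst1.1*, *vip* and *pdyn*) lacked reads in at least 1 of the 6 libraries, 4 still did without null C, and 3 lacked reads in at least 1 sibling library. Of the 16396 genes that reached 53 reads in at least 1 library, as each of these members did, the respective shares were 46.6%, 26.6% and 20.5%. Over the 9 members together, levels summed to 471 to 1174 CPM in siblings and 581 to 793 CPM in null larvae, so the range of the null libraries lay within that of the siblings.

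The opioid precursors were found in different libraries. *penka* and *penkb* are related genes for proenkephalin, the precursor of the enkephalins, and *pdyn* encodes prodynorphin, the precursor of dynorphins. *penkb* had 2101 reads in sibling A (105 CPM), none in sibling B and 617 in sibling C (33.1 CPM), and no reads in the 3 null libraries. The reads therefore lay in siblings of 2 repeats, while sibling B, like the null libraries, had none. In repeat D, neither genotype had reads of *penkb*, so 2 of all 4 sibling libraries lacked them. The mean in siblings, 40.1 ± 46.1 CPM after TMM normalization (SD, n = 3), was at least 128-fold higher than 3 reads in each null library, which corresponded to 0.314 CPM on average. This bound was 47.3-fold without sibling A and 237-fold without null C. Of 20782 genes with at least 10 reads in sum over the 6 libraries, 1242 (5.98%) had reads in siblings only. Since *penkb* was picked by this pattern, nothing can be read from it or from the size of the bound.

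*penkb* was used by the study, together with *pou4f1* and *chrna2b*, as a marker of the medial vestibular nucleus. *pou4f1*, a POU-homeodomain transcription factor, had 174, 211 and 147 reads in siblings and 52, 47 and 5 reads in null larvae. *chrna2b*, a nicotinic acetylcholine receptor subunit, had 1869, 1295 and 992 reads in siblings and 1673, 999 and 34 reads in null larvae. The groups thus did not overlap for *pou4f1* in CPM, with null libraries lower, as for 9.59% of all genes tested. Its log2 fold change (null over siblings) was -1.83 (standard error 1.30, unadjusted p = 0.196 by edgeR's quasi-likelihood test). For *chrna2b* the groups overlapped in CPM, and sibling B held reads of both genes and none of *penkb*. Summed over the 3 markers, levels were 78.5 to 208 CPM in siblings and 4.07 to 102 CPM in null larvae. This sum includes *penkb* itself, picked for reads in siblings only, at 105 CPM in sibling A and 33.1 CPM in sibling C. The choice of *penkb* thus sets part of the difference in the sum, and nothing is read from it. The part of medial vestibular neurons in the *penkb* result was not tested.

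*penka* had no reads in sibling A, 88 reads in sibling B (4.59 CPM) and 3 reads in sibling C (0.161 CPM). In null larvae it had 1773 reads in repeat A (104 CPM), 11 reads in repeat B (0.726 CPM) and none in repeat C. One null library was therefore far above all others, and the groups overlapped. In repeat D, which was not compared, the sibling library held 23163 reads of *penka* (1460 CPM) and the null library none. Genotypes were compared by edgeR's quasi-likelihood test over 14824 genes with Benjamini-Hochberg adjustment, and *penka* had a log2 fold change (null over siblings) of 4.58 (standard error 2.78, adjusted p = 1.00). The value turned to -1.92 without null A, to -0.19 with the repeat as a block and to -3.53 over all 4 repeats. *pdyn* had 53, 0 and 44 reads in siblings and 0, 15 and 0 reads in null larvae. Its levels, at most 2.65 CPM in siblings against 0.990 CPM in null larvae, overlapped between genotypes (log2 fold change -2.20, standard error 2.40, adjusted p = 1.00 by edgeR).

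*agrp* showed the opposite pattern to *penkb*. Its product, agouti-related peptide, blocks melanocortin receptors and is best known from the feeding circuits of the hypothalamus. In mammals it is made there together with neuropeptide Y. It had 2779 reads in null A (164 CPM) and 2064 reads in null B (136 CPM), but none in null C and none in the 3 sibling libraries. Reads were thus found in null larvae of 2 of 3 repeats. The mean in null larvae, 90.1 ± 78.9 CPM after TMM normalization (SD, n = 3), was at least 672-fold higher than 3 reads in each sibling library (0.134 CPM on average). With 1 library left out at a time, this bound ranged from 460-fold, without null A, to 1008-fold, without null C. Reads in null larvae only were found for 1052 of the 20782 genes (5.06%). Since *agrp* was picked by this pattern, nothing can be read from it or from the size of the bound. The bound covers counting error alone, and null C, of the same genotype, also had no reads. The study also lists *agrp* among the genes changed in these same libraries, so its listing is not independent evidence. No read of *agrp* was counted in repeat D, where 0 reads allow up to 4.08 CPM in the null library.

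*npy*, the precursor of neuropeptide Y, had no reads in any of the 8 libraries, including the 2 with many *agrp* reads. Of 10 markers of the hypothalamus and pituitary, *pomca*, *hcrt* and *prl* had no reads in the 6 libraries compared, *sim1a* had at most 1 read and *nr5a1a* at most 5 reads. Other markers were read in few libraries, namely *pitx3* with 1385 reads in sibling B, 158 in null A and at most 3 elsewhere, *pou1f1* with 762 reads in sibling B and at most 7 elsewhere, and *gh1* with 12 reads in null B alone. The list summed to 791 CPM and 438 CPM in null A and null B and to 547 to 944 CPM in siblings, mostly from *otpa* and *otpb*, transcription factors that hindbrain neurons also express. The sum in null C, which had no *agrp* reads, was 2152 CPM. The part of such cells in the *agrp* reads was not tested. *mc4r*, a melanocortin receptor on which agouti-related peptide acts, had 130, 1 and 0 reads in siblings and 157, 0 and 0 reads in null larvae, and *mc3r* had none.

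*vip* was the only tested member whose genotypes did not overlap. It encodes vasoactive intestinal peptide, which is related to PACAP and acts on receptors of the same family. In siblings it had 482, 508 and 2542 reads (24.1, 26.5 and 136 CPM), and in null larvae 216, 0 and 0 reads (12.7, 0 and 0 CPM). The null library was lower than its sibling library in 3 of 3 repeats. Sibling C was well above the other siblings, and null A was the highest null library. TMM-normalized levels averaged 55.0 ± 58.5 CPM in siblings against 3.81 ± 6.60 CPM in the null (SD, n = 3). No null value reached a sibling value, with the null lower, for 1 of the 6 members tested, against 7.53% of the 14824 genes tested after TMM normalization (two-sided exact permutation test for *vip*, p = 0.1, the minimum possible with 3 against 3). Groups that do not overlap always give this minimum, so the test adds nothing to the separation. For *penka*, *sst1.1*, *tac1*, *adcyap1b* and *pdyn*, the same permutation test gave p = 0.7, 0.4, 0.9, 0.7 and 0.4. The log2 fold change was -3.83 (standard error 2.12, adjusted p = 1.00 by edgeR). It was -2.49 without sibling C and -12.93 without null A, the only null library with reads.

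The call for *vip* depended on the program as well as on the pairing of libraries by repeat. With the repeat as a block, DESeq2 called *vip* as reduced in the null (log2 fold change -9.02, adjusted p = 0.0011), where 190 of 15510 genes with an adjusted p (1.23%) were called lower. In repeat A, the only repeat with null reads, *vip* had 24.1 CPM in the sibling library and 12.7 CPM in the null library. The size of this fold change thus rests on the counts of 0 in null B and null C, and null C had 62.4% of listed reads not aligned. DESeq2 without the block did not call it (adjusted p = 0.725), and edgeR with the block gave a log2 fold change of -8.20 (unadjusted p = 0.046, adjusted p = 1.00), where 0.681% of genes had an unadjusted p under 0.05. Over all alternatives, its adjusted p ranged from 0.0011 to 1.00. In repeat D, neither genotype had reads of *vip*.

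*sst1.1* encodes a somatostatin precursor, a peptide that mostly inhibits its target cells. It had 1641 reads (82.2 CPM) in sibling A, 3051 reads (159 CPM) in sibling B and none in sibling C. In null larvae it had 130 reads in repeat A (7.65 CPM) and none in repeats B and C. The null library was lower in the 2 repeats in which siblings had reads, but with 0 reads in 1 sibling library the groups overlapped. The log2 fold change was -4.84 (standard error 2.71, adjusted p = 1.00 by edgeR) and ranged from -13.24 to -3.92 with 1 library left out at a time, with its lowest value without null A.

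*tac1* and *adcyap1b* were counted in every library of repeats A to C, and their genotypes differed by less than the spread between libraries. *tac1* encodes the precursor of substance P and neurokinin A, which are released by sensory and brainstem neurons among others. It had 6154, 1983 and 8848 reads in siblings (308, 103 and 474 CPM) and 3503, 2338 and 2702 reads in null larvae (206, 154 and 282 CPM). Levels thus differed 4.59-fold among siblings and 1.83-fold among null libraries, and by CPM each null value fell within the range of the siblings. After TMM normalization null C, at 545 CPM, exceeded the highest sibling, at 426 CPM. The log2 fold change was 0.17 (standard error 0.76, adjusted p = 1.00 by edgeR). The libraries of repeat D, not compared, gave *tac1* 5619 reads in siblings (354 CPM) and 1 read in null larvae.

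*adcyap1b* encodes the precursor of pituitary adenylate cyclase-activating polypeptide (PACAP), which raises cyclic AMP in its target cells. It had 8427, 3407 and 9846 reads in siblings (422, 178 and 528 CPM) and 5069, 5646 and 2863 reads in null larvae (298, 373 and 299 CPM). Again each null value in CPM fell within the range of the siblings, which spanned 2.97-fold against 1.25-fold among null libraries, and null C again exceeded the siblings after TMM normalization (577 CPM against at most 475 CPM). The log2 fold change was 0.27 (standard error 0.59, adjusted p = 1.00 by edgeR). The direction of both genes depended on the scaling, and null C alone had a TMM factor under 1, at 0.518. Scaled to gene reads alone, the log2 fold changes were -0.46 for *tac1* and -0.21 for *adcyap1b*, where the median of all genes moved from -0.15 to -0.36, and without null C they were -0.68 and -0.12. No reads of *adcyap1b* were counted in repeat D in either genotype, although the sibling library held 15865368 gene reads.

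**Figure D2:**
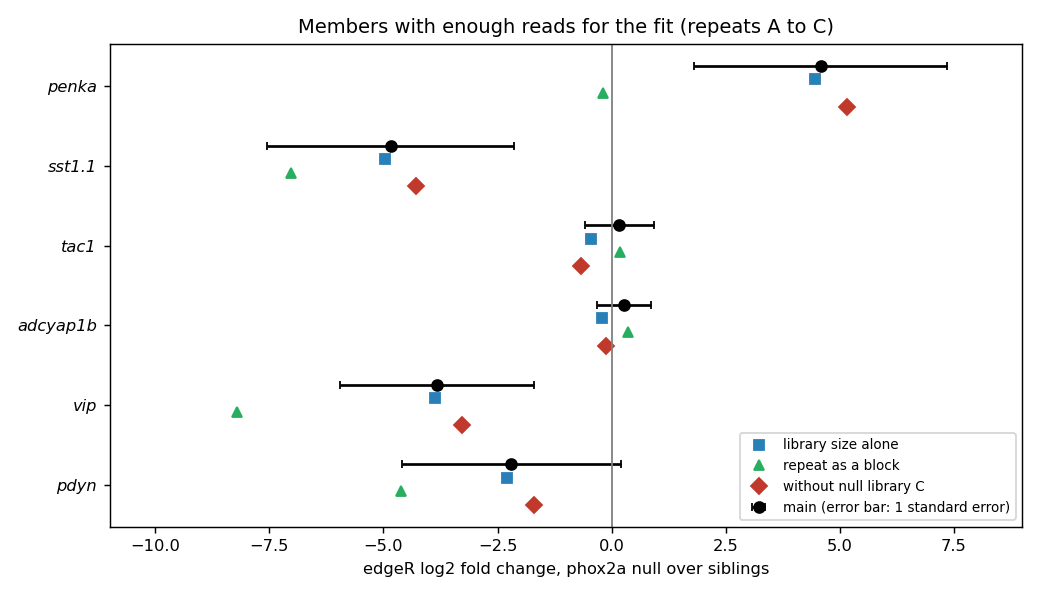
Log2 fold change (null over siblings) of the 6 tested members by edgeR in repeats A to C, with 1 standard error (black), and the same value scaled to gene reads alone (blue squares), with the repeat as a block (green triangles) or without null C (red diamonds). *sst1.1*, *vip* and *pdyn* stayed below 0 in these 4 fits, while *penka*, *tac1* and *adcyap1b* changed sign.

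A gene was called where its adjusted p was under 0.05 and its log2 fold change beyond 2 in size. Of the 6 members with enough reads for the test, edgeR called 0, and 0 had an unadjusted p under 0.05. DESeq2 without a block also called 0, with no adjusted p given for *penka*. Over all 14824 genes, edgeR called 0% and 477 genes (3.22%) had an unadjusted p under 0.05. Of the 6 members, 3 were higher and 3 lower in null larvae with a median log2 fold change of -1.02, against -0.15 over all genes tested. Without null C, 5 of 6 were lower (median -1.19, against -0.03 over all genes).

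Several of these peptides are also made by sensory and motor neurons, so marker lists of both were summed. The 7 markers of cranial sensory ganglia summed to 332 to 852 CPM in siblings, to 236 and 328 CPM in null A and null B and to less in null C, with reads on 5 or 6 markers in siblings and on 4 in null larvae. Except in null C, where it had no reads, most of the sum came from *prph*, an intermediate filament gene that motor neurons also express. *p2rx3a*, for a sensory ATP receptor, had no reads and *p2rx3b* at most 9. The 7 motor neuron markers summed to 2000 to 4061 CPM in siblings and 621 to 2749 CPM in null larvae. The part of these populations in the levels of *vip*, *sst1.1*, *tac1* and *adcyap1b* was not tested.

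Other precursor genes were mostly absent or sparse in the same way. Of 73 further precursor names listed, 59 had a row in the table and 39 had a read in repeats A to C. Of the 34 with at least 10 reads in sum, 7 had reads in all 6 libraries, against 42.8% of all genes with at least 10 reads. Counting the 9 members with the 59, 25 to 32 of 68 precursors had reads in a sibling library, and 33, 25 and 16 in null A, null B and null C. Of the 20 that could be tested, edgeR called 0. At an unadjusted p under 0.05 there were 1 higher and 1 lower gene, *ccka* and *ghrh*. The list had 6 genes higher and 14 lower in null larvae, with a median log2 fold change of -0.42 that did not move with *ghrh* set at its bound. Of all genes tested, 55.9% were lower, with a median of -0.15. Without null C, the median of the list was -0.09, with 10 genes higher and 14 lower. Of all genes tested in that fit, 51.7% were lower, with a median of -0.03.

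**Figure D3:**
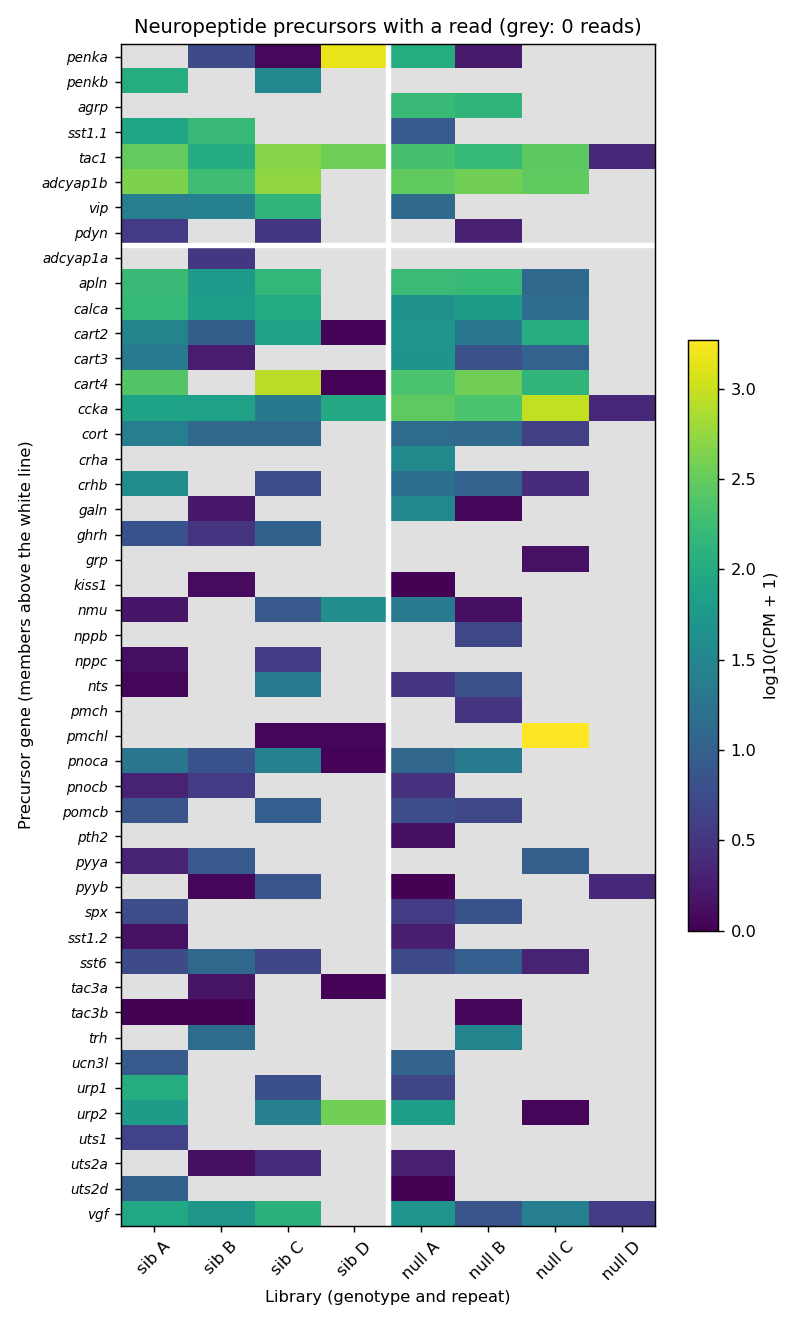
Level of every neuropeptide precursor with a read, as log10(CPM + 1), in the 8 libraries; members are above the white line and grey marks 0 reads. Most rows had grey cells in both genotypes, and null D, sibling D and null C had the fewest genes with reads (4, 10 and 16 of 68).

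*ccka*, the precursor of cholecystokinin, had 78.9, 73.8 and 19.8 CPM in siblings and 287, 218 and 947 CPM in null larvae. The lowest null value exceeded the highest sibling value on both scales. The same held for 246 of 14824 genes tested in CPM and for 3.1% after TMM normalization. Its log2 fold change was 3.97 (standard error 1.04, unadjusted p = 0.0050, adjusted p = 1.00 by edgeR), which fell to 2.21 without null C. *ghrh*, the precursor of growth hormone-releasing hormone, had 112, 40 and 174 reads in siblings and none in null larvae, at least 15.8-fold lower there. DESeq2 called it lower (adjusted p = 0.0035, and 0.030 with the repeat as a block), where 64 of 15194 genes with an adjusted p (0.421%) were called lower, whereas the edgeR adjusted p was 1.00. The study names *ghrh* among the genes that it found changed in these libraries, so this is not independent evidence. The bound for *ghrh* was 29.4-fold without null C and 10.4-fold without sibling C.

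Other precursors were read in 1 genotype only but in single or few libraries. In siblings these were *adcyap1a*, a second PACAP gene with 46 reads in repeat B, *nppc*, a natriuretic peptide gene with 7 reads in repeat A and 55 in repeat C, and *uts1*, for urotensin 1, with 72 reads in repeat A. In null larvae they were *crha*, for corticotropin-releasing hormone, with 583 reads in repeat A, and *nppb*, a natriuretic peptide gene, and *pmch*, for melanin-concentrating hormone, with 60 and 32 reads in repeat B. With *ghrh*, 4 of the 34 further precursors with at least 10 reads had reads only in siblings and 3 only in null larvae, against 5.98% and 5.06% of all genes. *pmchl*, a second melanin-concentrating hormone gene, had 17925 reads in null C (1871 CPM) and at most 2 reads in any other library. *cart4*, for a peptide of the cocaine- and amphetamine-regulated transcript family, had 246, 0 and 857 CPM in siblings and 220, 364 and 139 CPM in null larvae. *apln*, for apelin, had 164, 57.6 and 146 CPM in siblings and 170, 155 and 12.0 CPM in null larvae. The groups overlapped for these 3 genes.

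In contrast to the precursors, the machinery that processes and stores peptides was present throughout. Of 17 genes for processing enzymes and dense-core granule proteins with a row in the table, 15 had reads in all 6 libraries and 17 could be tested. None was called by edgeR or had an unadjusted p under 0.05, and none was called by DESeq2. Over all 4 repeats, edgeR called 1, the granin *chga* (log2 fold change 9.94, adjusted p = 0.028), which had 21490 reads in null D and none in sibling D. *cpe*, the carboxypeptidase that trims cleaved peptides, had 911 ± 189 CPM after TMM normalization in siblings and 1051 ± 204 CPM in null larvae (SD, n = 3). *pcsk1nl*, for an inhibitor of prohormone convertase 1, had 294 ± 89.3 and 306 ± 99.0 CPM. The granins *scg2b* and *scg3* had 472 ± 93.9 and 389 ± 302 CPM in siblings, and 718 ± 532 and 237 ± 28.3 CPM in null larvae. These 4 differences lay within the spread between libraries.

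For the 17 processing genes, 8 were higher and 9 lower in null larvae, with a median log2 fold change of -0.44. Without null C, 15 of 17 were lower (median -0.36), against 51.7% of all genes tested in that fit. The highest null value was under the lowest sibling value on both scales for 3 of the 17, *cadpsa*, *pam* and *pcsk1*, against 7.53% of all genes tested after TMM normalization. In CPM it was so for 4 of the 17, with *ptprna* as the fourth, against 9.59% of all genes tested. These 4 genes were singled out after their values were seen. *pcsk1*, prohormone convertase 1, which makes the first cuts in many precursors, had 38.6, 40.5 and 48.0 CPM in siblings and 16.9, 22.0 and 2.19 CPM in null larvae (log2 fold change -1.47, standard error 0.89, adjusted p = 1.00 by edgeR). *pam*, the enzyme that amidates peptides, had 168, 153 and 145 CPM in siblings and 98.5, 76.3 and 6.47 CPM in null larvae (log2 fold change -1.24, standard error 0.75, adjusted p = 1.00). Without null C, their log2 fold changes were -1.07 (unadjusted p = 0.047) and -0.77 (unadjusted p = 0.023), with adjusted p-values of 1.00. In that fit, 387 of 16687 genes were lower at an unadjusted p under 0.05. With null C, the unadjusted p-values by edgeR were 0.134 for *pcsk1* and 0.138 for *pam*. Both genes were chosen by these values, so nothing is read from their p-values. *cadpsa*, a priming factor for granule release, had 7.91 to 14.7 CPM in siblings and 2.40 to 7.12 CPM in null larvae. *scg5*, for a convertase 2 chaperone, was also singled out after its values were seen. It was higher in every null library than in any sibling library after TMM normalization. The same held for 3.1% of all genes tested. Its log2 fold change by edgeR was 1.46 (standard error 0.80), and 0.75 when scaled to gene reads alone. In CPM the groups overlapped only through null B, at 34.84 CPM against 34.89 CPM in sibling C.

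Receptors of the opioid, neuropeptide Y, melanocortin, somatostatin, tachykinin and PACAP/VIP families were sparse but present in both genotypes. Of 29 receptor genes with a row, 26 had a read in repeats A to C, 4 had reads in all 6 libraries and 10 in all 5 once null C was left out. None of the 19 tested was called by edgeR or had an unadjusted p under 0.05, and 11 were higher and 8 lower in null larvae (median log2 fold change 0.34). Scaled to gene reads alone, 9 were higher and 10 lower. *oprl1*, the nociceptin receptor, had 91.2 ± 72.1 CPM after TMM normalization in siblings and 147 ± 147 CPM in null larvae (SD, n = 3). *adcyap1r1a*, a PACAP receptor, had 89.6 ± 36.1 and 97.2 ± 37.3 CPM. *oprm1*, the mu opioid receptor, on which enkephalins act, had 294, 97 and 435 reads in siblings and 297, 309 and 0 reads in null larvae. *sstr1b*, a somatostatin receptor, had 456, 22 and 359 reads in siblings and 405, 837 and 0 reads in null larvae. The genotypes overlapped for these 4 receptors.

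Among the 24 receptors with at least 10 reads, 2 had reads in siblings only, against 5.98% of all genes. The neuropeptide Y receptor genes *npy2r* and *npy8br* made up these 2, of 7 such genes listed. *npy2r* had 586, 152 and 0 reads in siblings and *npy8br* had 34, 0 and 10, with no reads in null larvae. *npy2r* did not pass the edgeR filter. DESeq2 called it lower only with the repeat as a block (adjusted p = 0.026, against 0.094 without). In the fit with the block, 190 of 15510 genes with an adjusted p (1.23%) were called lower. *npy2r* was named for its reads in siblings only, so nothing is read from this call. *npy1r*, a further receptor of this family, had 132, 136 and 68 reads in siblings and 101, 117 and 7 reads in null larvae. The remaining genes of the family, *npy2rl*, *npy4r*, *npy7r* and *npy8ar*, were higher in null larvae, with overlapping groups. Their log2 fold changes were 1.39, 1.15, 1.06 and 0.40 by edgeR (standard errors 2.09, 2.40, 1.97 and 1.91). With the repeat as a block they were 2.19, -0.15, -0.73 and 0.68, so *npy4r* and *npy7r* changed sign. Most null reads of *npy4r* and *npy7r* lay in null B, with 130 and 93 reads.

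**Figure D4:**
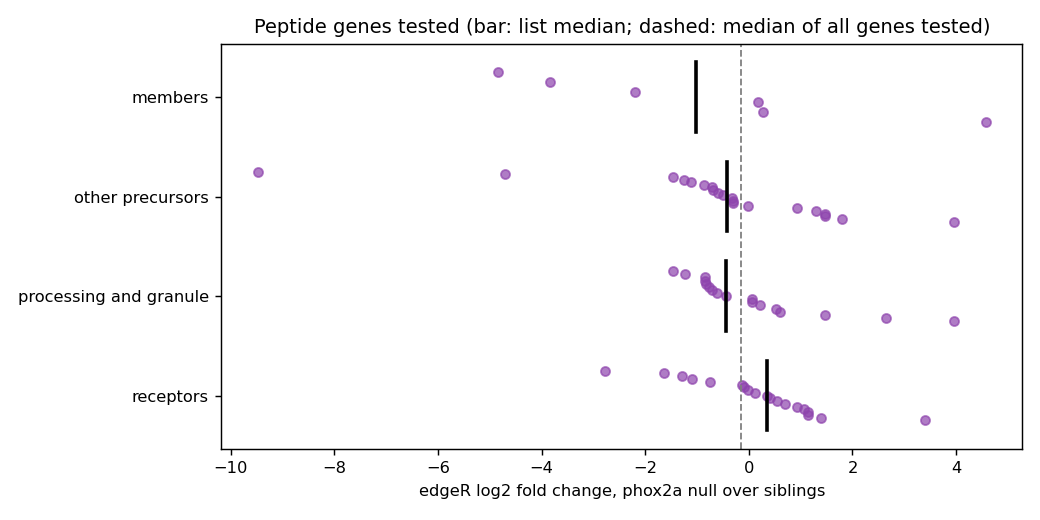
Log2 fold change (null over siblings, edgeR, repeats A to C) of every tested gene in 4 lists of peptide genes, with 1 point per gene, the list median as a bar and the median of all genes tested as a dashed line. Medians were -1.02 for 6 members, -0.42 for 20 other precursors, -0.44 for 17 processing genes and 0.34 for 19 receptors, and no gene was called.

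Genes with patterns most like those of the members were sought by Pearson's r of log2(CPM + 1) over the 8 libraries, given as a description. The genes most like *penkb* included *CU467905.1* and *si:ch211-133l5.8*, each with r of 1.00 and with reads only in sibling A and sibling C. For *agrp* they were *FP009765.1*, *BX649399.2* and *btc*, the gene for betacellulin, each with r of 1.00 and with reads only in null A and null B. An r over 0.95 was found for 125 genes with *penkb* and 104 genes with *agrp*, of 20781 compared. The points share the libraries in which these genes had no reads. For *adcyap1b* the 3 most alike were *phka2*, *cnih1* and *FQ311928.1* with r of 0.999, 0.998 and 0.998, and 1297 genes had an r over 0.95, all 8 libraries included. *adcyap1b* and these 3 genes had no reads in either library of repeat D, so their r rests in part on these shared zeros.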

How the data were processed

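Bulk RNA was sequenced from sorted neurons (SMART-Seq HT libraries). The authors deposited counts, whole reads per gene and library, aligned to a GRCz11 reference extended by Kaede and GFP. The aligner and counting program are not given in the sources used here. The authors' table of counts divided by a factor per library was not used. The 5 rows that name no gene held 41.2% to 98.1% of listed reads and stayed out. Columns name a genotype and a run code, so libraries were placed by genotype and lettered by run.

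CPM were taken over gene reads. Repeats A to C entered the test of genotype by edgeR 4.0.16 (filterByExpr, TMM, glmQLFit, glmQLFTest) in R 4.3.3 and Benjamini-Hochberg adjustment over all genes tested, with the study's thresholds. Standard errors came from each coefficient and its F value. Single genes were tested by exact permutation, using log2 CPM (prior count 2). Alternatives were DESeq2 1.42.0, other scalings and filters, fits that leave out each library or use all 4 repeats, and the repeat as a block. The fits were tested on simulated counts that gave all genes the same spread between libraries. That test does not cover genes with many reads in some libraries and none in others, such as most members here. A fold against a genotype with no reads was computed against 3 reads in each of its libraries.

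Both libraries of a repeat came from 1 experiment. Their deviations from the genotype means correlated at 0.027, 0.082 and 0.050 in repeats A, B and C over 14824 genes.

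The members and the gene lists were chosen with earlier results of these data known. All members were named, and from each list the 4 genes with the highest mean CPM, those with an unadjusted p under 0.05 and those with reads in 1 genotype only. Further genes were named outside these rules, among them *cadpsa*, *pam*, *pcsk1*, *ptprna*, *scg5*, *chga*, *mc4r*, *urp2*, *nmu* and neuropeptide Y receptors other than *npy2r* and *npy8br*. The patterns most alike were sought for *penkb*, *agrp* and the member with the highest mean CPM in siblings. Marker lists also covered glia (539 to 1231 CPM over the 6 libraries), skin (0.726 to 3351 CPM, highest in sibling A and null C), muscle (1.30 to 63.2 CPM), erythroid cells (0.104 to 5.34 CPM) and microglia and macrophages (0.313 to 202 CPM).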

Additional observations from a re-analysis of the deposited data

Results flagged for a closer look

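Across all 4 repeats, 14 groups of 4 libraries had reads of a member, and in 5 of them 1 library stood far from the other 3, its gap to the nearest exceeding Dixon's critical share of the group's range. Chance flags about 1 in 20 groups of normally distributed values, a rate that does not carry over to sparse counts, so nothing is read from the number of such groups. *penka* stood out in siblings of repeat D (gap 0.997 of the range, 1460 CPM against at most 4.59 CPM) and in null larvae of repeat A (0.993, 104 CPM against at most 0.726 CPM). In null larvae, the reads of *sst1.1* and *vip* lay in repeat A alone and those of *pdyn* in repeat B alone, a gap of 1.00 of the range in each, which any group with reads in a single library reaches.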

How the results depend on the processing

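The count of 0 called genes was the same in 11 of 14 alternatives, including each fit without 1 library. DESeq2 called 128 genes and 287 with the repeat as a block, and edgeR called 40 over all 4 repeats, *chga* among them. Genes with an unadjusted p under 0.05, 477 by edgeR, were 101 with the replicate block, 233 by library size alone, 1228 without a filter, 1219 by DESeq2, 1585 by DESeq2 with the block and 281 to 1404 with 1 library left out, the most without null A. Of the members other than *penkb* and *agrp*, 0 were called except by DESeq2 with the replicate block, which called 1, *vip* (log2 fold change -9.02). The block changed no other member's call. At an unadjusted p under 0.05 by edgeR, these members numbered 2 without a filter, 2 without null A and 1 without sibling C. There was 1 over all 4 repeats and 1 with the replicate block, and DESeq2 with the block had 2. All of these were lower in null larvae, and the other alternatives had 0. *sst1.1*, *vip* and *pdyn* were lower in null larvae in every alternative that could test them. *penka* reversed with the replicate block (-0.19 by edgeR, -0.48 by DESeq2), over all 4 repeats (-3.53) and without null A (-1.92), and ranged from -1.92 to 8.65 with 1 library left out. *tac1* reversed when scaled by library size alone (-0.46), with 10 reads required in every library (-0.020), over all 4 repeats (-0.25), without sibling B (-0.26) and without null C (-0.68). *adcyap1b* reversed by library size alone (-0.21) and without sibling B (-0.09) or null C (-0.12). Their highest values with 1 library left out were 0.67 and 0.58. Genes with reads in 1 genotype only, 2294 in the 6 libraries, were 948 with at least 50 reads required, and 2346 to 3485 with 1 library left out, the most without null A. The cause of these shifts was not tested. 4 members could not be tested with 10 reads required in every library, and *sst1.1* and *pdyn* not over all 4 repeats. Shallow null libraries limit what a count of 0 shows, up to 0.313 CPM in repeat C and 4.08 CPM in repeat D.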

Other observations

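In repeat D, which was not compared, the sibling library had reads on 10 of 68 precursors and the null library on 4. *penka* held 62.9% of the precursor reads of that sibling library. Of the other genes listed, *urp2*, for a urotensin-related peptide, had 5951 reads there against 1270, 0 and 480 in sibling A, sibling B and sibling C. *nmu*, for neuromedin U, had 620 reads, against 12, 0 and 136. *ccka* had 1492 reads there, against 1575, 1415 and 369. The granule protein *chga* had 21490 reads in null D and none in its sibling library, and 328 to 5545 reads in the 6 libraries of repeats A to C. Null D held 735217 gene reads in all, and no test of these values was made.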
